A study of Sus scrofa with 16 samples.

Results

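Cell cycle genes were followed here through the cells of the pig small intestine: genes switched on while a cell copies its DNA (S phase genes), genes switched on as it prepares for and passes through mitosis (mitotic genes), and 2 that dividing cells use more broadly. The list held 37 names, and a name counted as a member when the feature table joined it to a gene ID. That gave 30 members of 25880 listed genes: 12 S phase members (MCM2, MCM3, MCM4, MCM5, MCM6, MCM7, PCNA, PCLAF, TYMS, RRM1, TK1, DUT), 16 mitotic members (TOP2A, CENPF, TPX2, UBE2C, BIRC5, KIF11, KIF15, KIFC1, DLGAP5, SHCBP1, CCNB1, CCNB2, AURKB, BUB1, CENPE, CENPA) and the broad members HMGB2 and STMN1. CDK1, BUB1B and NUSAP1 carried a gene ID without a symbol in the files, were named through the gene name table and are given apart. MKI67, CCNA2, AURKA and RRM2 matched no symbol and were not analysed here. All 30 members were seen in the kept cells, from 430 UMIs for RRM1 to 30369 for HMGB2.

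A dividing cell first loads the MCM helicase onto its DNA, then copies it with the help of the PCNA clamp and a supply of nucleotides, and later builds a spindle whose motors and checkpoint kinases share the chromosomes out. Most of these transcripts rise and fall with the phase, so their UMIs mark cells in cycle. In the gut, the crypts hold the dividing epithelial cells, while the absorptive enterocytes on the villi have left the cycle. Peyer's patches, lymphoid follicles of the gut wall, hold B cells that divide rapidly, and T cells of the epithelium divide at a lower rate.

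The data were droplet RNA counts of cells freed from the epithelium, with DTT and EDTA and a density step, of 7.5-week-old female pigs of mixed breed. The study asked which epithelial cells line the different stretches of the small intestine. DUOD was duodenum next to the pylorus, JEJ was jejunum, IPP was ileum with Peyer's patches and NoPP was ileum away from them. No treatment, strain contrast or genotype separated the groups. The labels name 4 titles in each region, but each region is 1 matrix whose cells cannot be traced to a title, so each region was 1 pooled sample and no difference was tested. Intervals are 95%, exact, and cover counting error only; they say nothing of the spread between pigs.

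The 4 matrices held 44726845 to 91813234 UMIs, and 3187 cells of IPP, 2049 of NoPP, 978 of JEJ and 714 of DUOD were kept, with median depths of 3623 to 4401 UMIs. Before filtering of shared barcodes, 116 barcodes passed the limits in 2 or more libraries, and 6 did so among the kept cells. Cells were clustered without the cell cycle genes and named from markers. B-like cells numbered 1178 in IPP, 57 in NoPP, 13 in JEJ and 1 in DUOD. The B cell coreceptor gene MS4A1 was found in 89.4% of those of IPP and CD3E in 3.06%. T or innate lymphoid-like cells were most numerous in the ileum, 1723 in NoPP and 1574 in IPP, beside 627 in JEJ and 398 in DUOD. CD3G was found in 69.3 to 84.8% of them. Crypt epithelial-like cells were few, 29 in JEJ, 12 in NoPP, 3 in IPP and 2 in DUOD. OLFM4, a crypt marker, was found in 72.4% of those of JEJ and 83.3% of those of NoPP, and the stem cell marker LGR5 was at 2.33 CPM and at 0 UMIs. The Paneth marker LYZ was at 3199 and 1166 CPM in these cells, while the other Paneth markers PLA2G2A and MMP7 were at 0 UMIs.

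S phase members were highest in B-like cells, and mitotic members in B-like cells and in the few crypt epithelial-like cells of NoPP. A level below is the UMIs of a gene or list as CPM, scaled to the class total. B-like cells of IPP held the S phase members at 3844 CPM (3806.5 to 3882) and the mitotic members at 2581 CPM (2550 to 2612). Those of NoPP held 3241 and 2351 CPM, and the 13 cells of JEJ held 3340 and 2279 CPM. T or innate lymphoid-like cells held S phase members at 917 CPM in duodenum (DUOD), 633 in JEJ, 712 in NoPP and 555 in IPP. Their mitotic members were at 839, 704, 652 and 314 CPM in the same order. Crypt epithelial-like cells held 900 and 784 CPM in JEJ and 769 and 2661 CPM in NoPP. In the 3 regions with more than 1 B-like cell, B-like levels stood above every T level, and the crypt levels of JEJ lay among those of T cells.

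**Figure D1:**
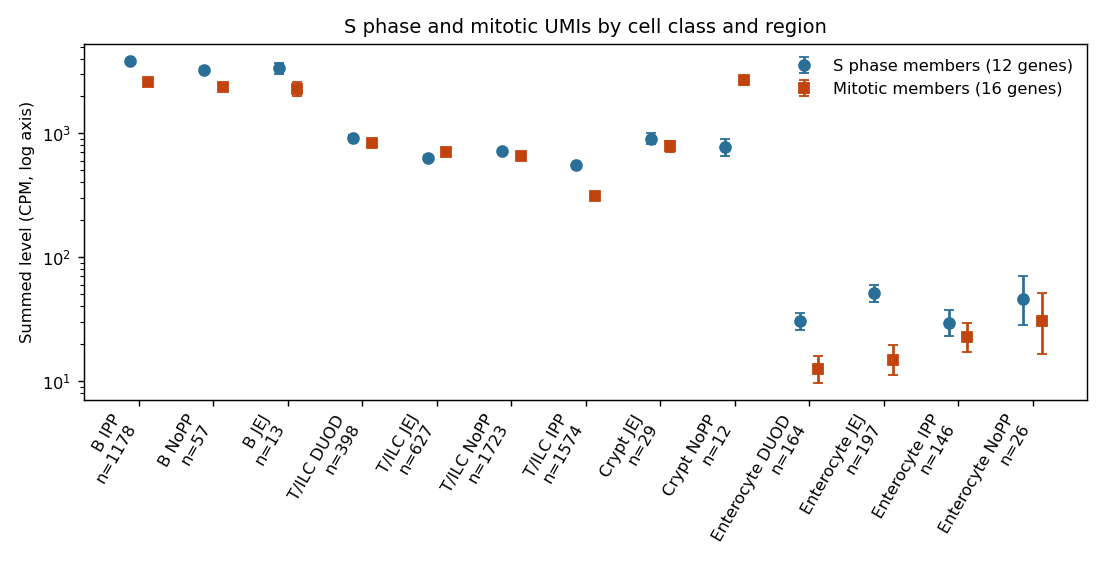
Summed level of the 12 S phase members (blue circles) and the 16 mitotic members (orange squares) in each cell class and region, in CPM on a log axis, with exact 95% counting intervals and the number of cells. B-like cells lie highest for the S phase list, the mitotic level of crypt epithelial-like cells stands apart between JEJ (784 CPM) and NoPP (2661 CPM, above the 2581 CPM of B-like cells of IPP), and enterocyte-like cells lie lowest.

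Enterocyte-like cells, which do not divide, give the level of cells that should lack these transcripts. Their S phase members were at 30.3 CPM in DUOD, 51.0 in JEJ, 29.5 in IPP and, for NoPP, 45.7, and their mitotic members at 12.4, 14.9, 22.7 and 30.4 CPM. CENPE, a kinesin of the kinetochore, made up 53.6 to 78.6% of these mitotic UMIs, so CENPE counts also reach cells out of cycle. Each cell was thinned to 1000 UMIs and counted for a list when 2 or more of its UMIs remained. Of 533 enterocyte-like cells, with a median depth of 19454 UMIs, 2 were counted for the S phase list and 2 for the mitotic list (0.375% each, 0.0455 to 1.35), all in JEJ. Without thinning the shares were 19.1 and 7.50%. Among 103 myeloid-like cells of NoPP (median 2402 UMIs) none was counted for either list, with an upper bound of 3.52%. Among 45 of IPP, 0 were counted for the S phase list and 2 for the mitotic list (4.44%, 0.543 to 15.1). The B and T shares given below all stand above the enterocyte-like share, while the mitotic shares of T cells lie inside the myeloid-like interval of IPP.

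The S phase members of B-like cells were led in UMIs by DUT, which hydrolyses dUTP to keep uracil out of DNA. It was at 1506 CPM in IPP, 1133 in NoPP and 1022 in JEJ, and gave 39.2% of the S phase UMIs of IPP. PCLAF, a partner of the clamp, was at 579, 496 and 717 CPM. PCNA, the clamp itself, was at 467, 429 and 462 CPM. DUT was 1.33-fold higher (1.22 to 1.45) in IPP than in NoPP, while the PCNA ratio of 1.09 (0.944 to 1.26) had an interval that spans 1. Counts come from transcript ends and depend on how each gene's end is annotated, so levels of different genes are not ranked.

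The helicase gene MCM7 was at 301, 293 and 187 CPM in B-like cells of IPP, NoPP and JEJ. MCM6 was at 213, 175 and 147 CPM, and MCM4 at 139, 147 and 128 CPM. MCM3, MCM5 and MCM2 lay between 39.3 and 95.8 CPM in these regions. All 6 subunits work as a single ring, and all 6 were seen in the B-like cells of these 3 regions. Of the nucleotide enzymes, TYMS, which makes thymidylate, was at 239.6, 212 and 206 CPM, and TK1, which salvages thymidine, at 154, 147 and 265 CPM. RRM1, the large subunit of ribonucleotide reductase, was at 20.1 and 10.9 CPM in IPP and NoPP and at 0 UMIs in the 13 cells of JEJ.

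Among the mitotic members, TOP2A, which untangles sister DNA, was at 499.6 CPM in B-like cells of IPP, 450.5 in NoPP and 403 in JEJ. The kinetochore protein CENPF was at 327, 315 and 324 CPM. For both genes the 3 regions lay close together. UBE2C, the ubiquitin-conjugating enzyme of the anaphase-promoting complex, was at 256, 190.2 and 118 CPM. TPX2, a spindle assembly factor, was at 231, 190.2 and 216 CPM. BIRC5 and AURKB, partners in the chromosomal passenger complex, were at 233 and 59.9 CPM in IPP and at 197 and 45.9 CPM in NoPP. The 4 genes before, from UBE2C on, all had their highest level in IPP. The spindle motors KIF11, KIFC1 and KIF15 were at 132, 97.6 and 58.7 CPM in IPP and at 155, 96.2 and 96.2 CPM in NoPP. KIF15 was the member furthest towards NoPP, 1.64-fold lower (1.18 to 2.23) in IPP. DLGAP5, which binds spindle microtubules, and SHCBP1, a protein of the midbody, were at 121 and 105 CPM in IPP. The cyclins CCNB1 and CCNB2 were at 81.4 and 52.8 CPM, the checkpoint kinase BUB1 at 37.9 CPM and the centromeric histone CENPA at 39.0 CPM. CENPE was at 249.6 CPM in IPP, about the same in NoPP (245 CPM) and JEJ (275 CPM). HMGB2, a chromatin protein, was at 1837, 1647 and 1395 CPM in IPP, NoPP and JEJ, and STMN1, which takes microtubules apart, at 862, 846 and 963 CPM.

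**Figure D2:**
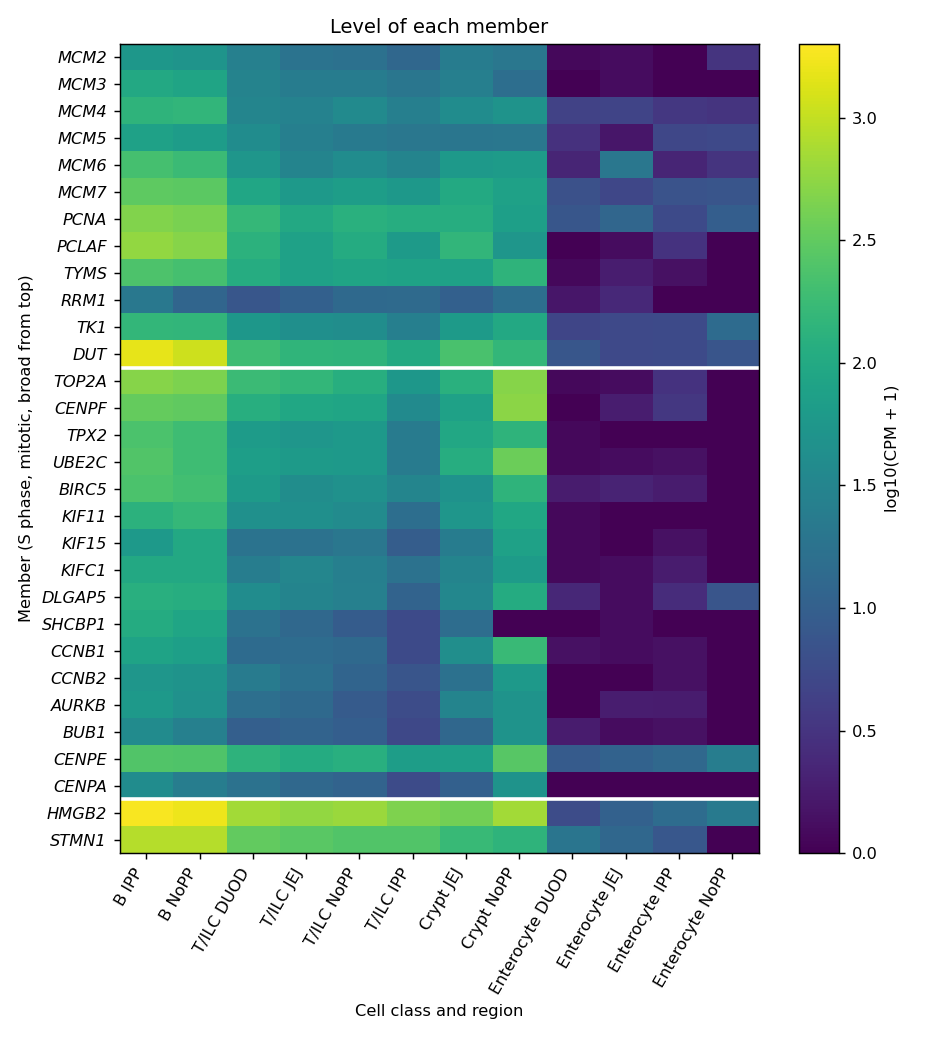
Level of each of the 30 members in 12 groups of cells, as log10(CPM + 1), with S phase members above the upper white line, mitotic members between the lines and broad members below. In the B-like columns of IPP and NoPP, DUT (1506 and 1133 CPM) and HMGB2 (1837 and 1647 CPM) are brightest, and the enterocyte-like columns are darkest, with MCM6 at 19.5 CPM in JEJ.

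At the main limits the list sums of B-like cells of IPP and NoPP were close. Of the 30 members, 0 were higher and 0 lower by 2-fold or more in IPP, where 5.46% of all 10448 genes tested were higher and 7.31% lower. Among 30 genes such shares amount to few, so the count of 0 is not read as a trait of the members. The median log2 ratio of the members was 0.17 beside -0.08 for all genes. The S phase sum was 1.19-fold (1.13 to 1.25) that of NoPP and the mitotic sum 1.10-fold (1.03 to 1.17). A single cell held 30.0% of the mitotic UMIs of the 57 B-like cells of NoPP, and without it their mitotic level was 1879 CPM. With the highest cell of each region left out, 3 members passed 2-fold higher in IPP. Without each gene's highest cell, 6 members did so. The share of all genes was not measured at these settings. Classes drawn from each cell's marker UMIs gave lower levels, 2517 CPM for the S phase and 1528 CPM for the mitotic list in IPP, beside 2203 and 1723 CPM in NoPP. The mitotic list was then lower in IPP than in NoPP, and so it was at a mitochondrial limit of 10%, at 3338 and 3531 CPM.

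The B-like cells were not alike in cycle. Cluster 20 (522 cells, led by BANK1 and CCR7) held 1192 CPM of S phase and 852 CPM of mitotic members. Cluster 25 (428 cells, led by ZC3H13 and MAPK4) held 4193 and 2789 CPM. Cluster 23 (224 cells, led by histone genes, with TOP2A, E2F8, PCLAF and KIF11 among its leading genes) held 6448 and 4431 CPM. The cells of that cluster had a median of 11769.5 UMIs, beside 6126 in cluster 20 and 5323.5 in cluster 25. Cluster 6 (75 cells, led by FABP5) was of low depth, 2170 UMIs, and held 4810 and 1624 CPM. It was named from 3 B markers, the fewest allowed, beside 6 or 7 in the other B clusters. In IPP its cells of neither list, the S phase list alone and both had median mitochondrial shares of 1.42, 2.46 and 3.24%. Its 2 cells of the mitotic list alone had 9.26%. In cluster 20 the first 3 kinds had 8.62, 9.48 and 9.62%. The S phase share of S phase plus mitotic UMIs was 58.3, 60.1 and 59.3% in clusters 20, 25 and 23, and 74.8% in cluster 6. The cell cycle list was left out of the clustering, but other genes that move with the cycle, such as the histones, were not, so these clusters describe the B-like cells and test nothing.

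B-like cells stood far above T or innate lymphoid-like cells of IPP. Of the 30 members, 29 were higher by 2-fold or more and 0 lower, where 17.1% of the 11370 genes tested were higher and 18.5% lower. RRM1 was the exception, at 20.1 against 12.8 CPM, a ratio of 1.57 (1.20 to 2.07). The median log2 ratio was 2.86 for the members and -0.03 for all genes. The S phase sum was 6.93-fold higher (6.69 to 7.18) and the mitotic sum 8.23-fold higher (7.85 to 8.63). The widest gaps were those of SHCBP1, at 105 against 4.54 CPM or 23.2-fold (15.9 to 35.4), CCNB1, at 81.4 against 4.54 CPM or 17.9-fold (12.2 to 27.4), and DUT, at 1506 against 101 CPM or 14.97-fold (13.8 to 16.3). TYMS, at 3.03-fold, STMN1, at 3.44-fold, and CENPE, at 3.66-fold, had the narrowest gaps after RRM1. The B markers summed to 26.0 CPM in the T or innate lymphoid-like cells of IPP, with UMIs of 7 of 7 markers, and to 2189 CPM in the B-like cells.

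By counted cells too, B-like cells of IPP and NoPP stood above T or innate lymphoid-like cells. After thinning, 49.2% of the 1178 B-like cells of IPP (46.3 to 52.0) were counted for the S phase list and 30.6% (28.0 to 33.4) for the mitotic list. In NoPP the shares were 54.4% (40.7 to 67.6) and 26.3% (15.5 to 39.7). T or innate lymphoid-like cells were counted for the S phase list in 11.1% of DUOD (8.15 to 14.6), 7.50% of JEJ (5.56 to 9.84), 7.20% of NoPP (6.02 to 8.52) and 6.29% of IPP (5.14 to 7.60). The mitotic list gave 5.53% (3.50 to 8.25), 4.31% (2.86 to 6.20), 4.00% (3.13 to 5.04) and 3.05% (2.26 to 4.02). The intervals of the 4 regions overlapped for the mitotic list. For the S phase list those of DUOD and IPP did not, but the DUOD share was 7.75% at a mitochondrial limit of 40%. With suspected doublets kept the shares were 8.35% in DUOD and 7.25% in IPP. The DUOD S phase level changed little, from 917 to 922 CPM. Each share rests on 1 random draw of UMIs per cell, and the spread between draws was not measured. Unthinned, the shares were 78.4 and 49.9% in B-like cells of IPP and 24.4 to 29.3% and 9.92 to 12.3% in T or innate lymphoid-like cells. The counts are cut from a range: 129 of the 579 S phase cells of B-like IPP held exactly 2 UMIs and 209 further cells held 1, and 93 of the 361 mitotic cells held exactly 2 and 141 further cells held 1.

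Some cells were counted for both lists. In B-like cells of IPP, 310 cells were counted for both lists, 269 for the S phase list alone and 51 for the mitotic list alone. Thus 85.9% of mitotic cells (81.8 to 89.3) were also S phase cells. In T or innate lymphoid-like cells the same share was 54.5% in DUOD (32.2 to 75.6), 63.0% in JEJ (42.4 to 80.6), 53.6% in NoPP (41.2 to 65.7) and 52.1% in IPP (37.2 to 66.7). In B-like cells of NoPP it was 14 of 15 cells, 93.3% (68.1 to 99.8), an interval that overlaps those of T cells of DUOD and JEJ. S phase cells were 49.2% of all B-like cells of IPP and 6.29 to 11.1% of T or innate lymphoid-like cells, so the share that meets without any link also differs between the classes; the difference between classes was not tested. Within the B-like cells of IPP the share was 62.5% (43.7 to 78.9) in cluster 20, 77.7% (69.2 to 84.8) in cluster 25 and 94.6% (90.3 to 97.4) in cluster 23. In the reverse direction, 53.5% of the S phase cells of B-like IPP and 25.3 to 36.2% of those of the T regions were also mitotic cells. In the crypt epithelial-like cells of all regions, 3 of 17 mitotic cells were S phase cells, 17.6% (3.80 to 43.4). The part of overlapping phases, of doublets and of transcripts that last beyond their phase in these shares was not tested.

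**Figure D3:**
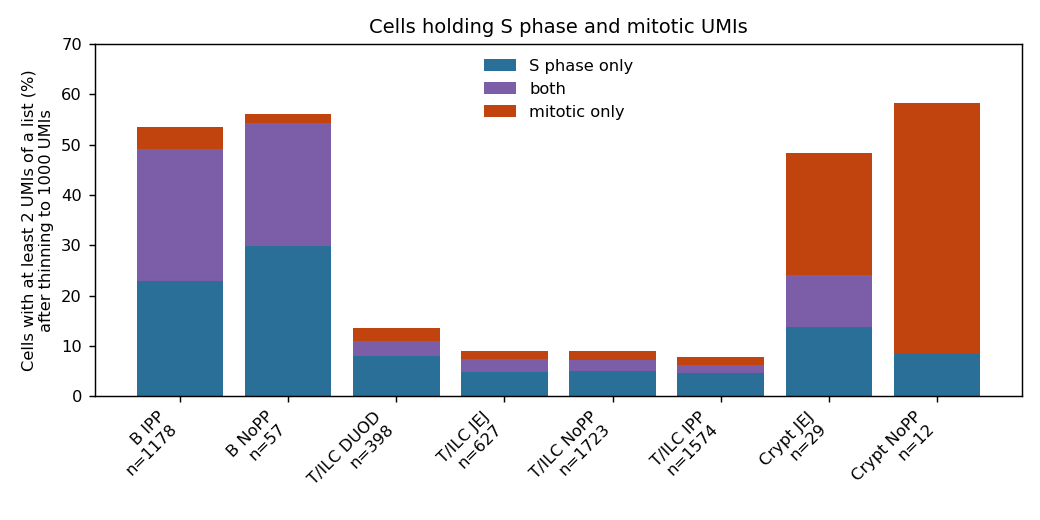
Percent of cells in each class and region with at least 2 UMIs of the S phase list alone (blue), of both lists (purple) or of the mitotic list alone (orange), after thinning each cell to 1000 UMIs, with the number of cells below. Cells counted for both lists form the purple part, 310 of 1178 in B-like cells of IPP, and cells counted for the mitotic list alone form most of the bar in the 12 crypt epithelial-like cells of NoPP.

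In the B-like cells of IPP and the T cells of NoPP, cells counted for a list were deeper even though the counting was done on thinned cells. In B-like cells of IPP the median was 4666.5 UMIs in cells counted for neither list and 6333 in cells of the S phase list alone. It was 11419.5 in cells counted for both and 7413 in cells of the mitotic list alone. In T or innate lymphoid-like cells of NoPP the medians were 3443, 4428, 6740 and 6839.5 UMIs. In crypt epithelial-like cells of JEJ the order differed, with 1847 UMIs in the 7 cells of the mitotic list alone and 5286 in the 15 of neither list. The part of depth in the shares was not tested.

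Each member was then read over these 4 kinds of cells, with the kind set from the other members of its list so that a gene did not place its own cells. Where genes are read over these kinds, S phase cells and mitotic cells are those counted for that list alone. In B-like cells of IPP, 11 of 12 S phase members were higher in S phase cells than in mitotic cells, and 16 of 16 mitotic members were higher in mitotic cells. The 6 helicase genes had the largest ratios of S phase over mitotic cells, 2.69 to 3.44. MCM4 was at 38.7, 175, 204 and 51.0 CPM in cells of neither kind, S phase cells, cells of both kinds and mitotic cells, 3.44-fold higher (2.32 to 5.33) in S phase than in mitotic cells. MCM3 was at 18.0, 148, 131 and 50.1 CPM over the same kinds. PCNA was at 92.3, 543, 739 and 225 CPM. DUT was at 489, 1828, 2452 and 1700 CPM, a ratio of 1.08 (1.02 to 1.14). PCLAF was at 34.4, 553, 1030 and 466 CPM, and its ratio was 1.19 (1.05 to 1.34). RRM1 was at 16.9 CPM in S phase and 28.5 CPM in mitotic cells, an interval of the ratio that spans 1.

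The mitotic members also differed among themselves in B-like cells of IPP. UBE2C was at 6.40, 78.6, 480.5 and 827 CPM over cells of neither kind, S phase, both and mitotic cells, 10.5-fold higher (8.85 to 12.5) in mitotic than in S phase cells. BUB1 had a ratio of 11.3 (6.45 to 20.5) and CENPF of 7.89 (6.87 to 9.08). TOP2A was at 11.5, 256, 984 and 1222 CPM, a ratio of 4.77 (4.27 to 5.32). SHCBP1 was highest in cells of both kinds, at 5.44, 74.4, 197 and 111 CPM, with a ratio of 1.49 (1.08 to 2.03), and BIRC5 had a ratio of 2.56 (2.17 to 3.01). BUB1, UBE2C and CENPF had the largest ratios of the 16 mitotic members, and SHCBP1, BIRC5 and KIFC1 the smallest. The broad members were in S phase cells as well: HMGB2 was at 318, 1504, 3009 and 2763 CPM and STMN1 at 151, 744, 1407 and 1145 CPM.

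**Figure D4:**
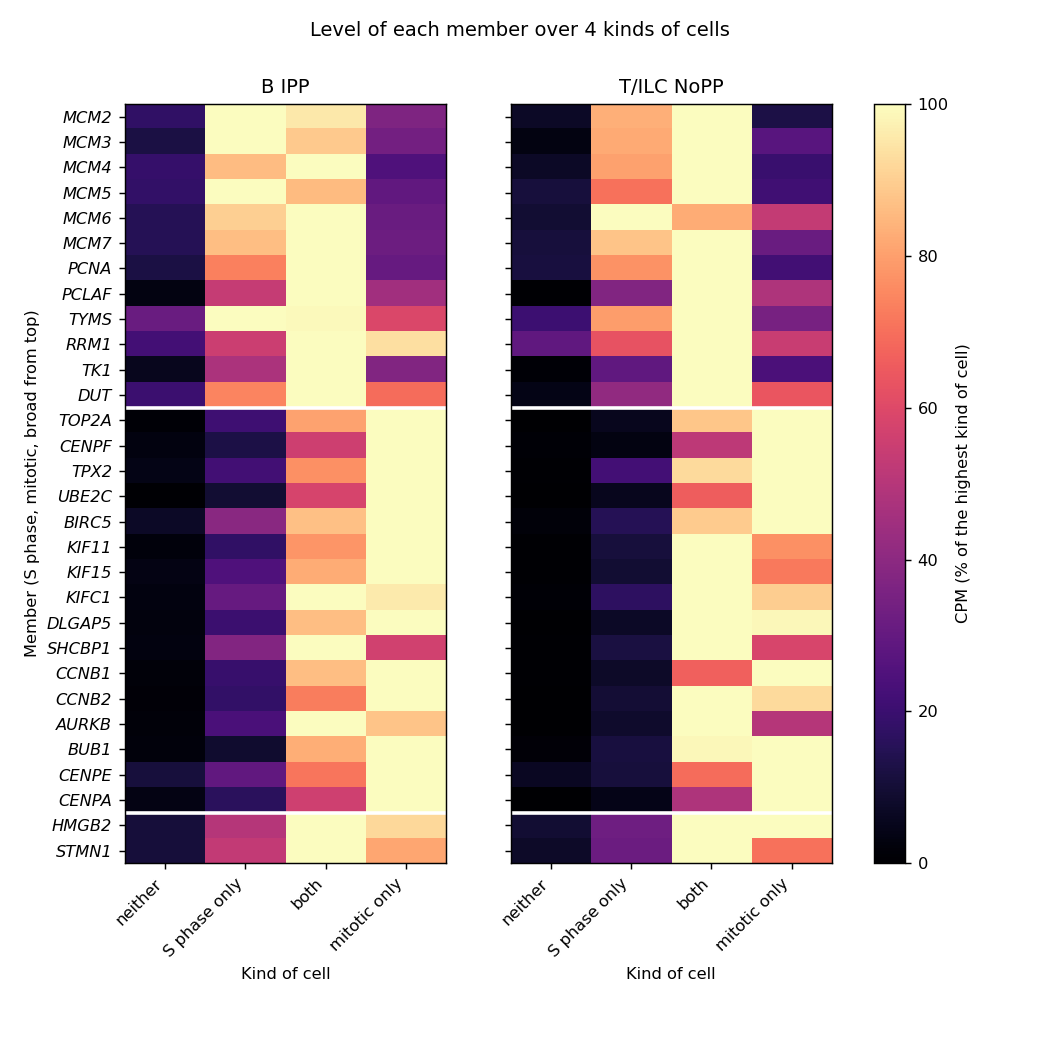
Level of each member in cells counted for neither list, the S phase list alone, both lists or the mitotic list alone. Levels are a percent of the highest among the 4 kinds, in B-like cells of IPP (left) and T or innate lymphoid-like cells of NoPP (right). A gene's own UMIs did not place its cells. The helicase genes peak in S phase cells or cells of both kinds, UBE2C and CENPF peak in mitotic cells, and PCLAF and DUT stay high in mitotic cells.

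In T or innate lymphoid-like cells of NoPP the pattern was similar, with 10 of 12 S phase members higher in S phase cells and 16 of 16 mitotic members higher in mitotic cells. MCM2 was at 73.8 CPM in S phase cells and 11.1 CPM in mitotic cells, on 35 and 3 UMIs. PCNA was at 468 and 131 CPM, 3.56-fold higher (2.48 to 5.25) in S phase cells. The exceptions were PCLAF, at 375 and 483 CPM, and DUT, at 420.5 and 651 CPM or 1.55-fold higher (1.26 to 1.90) in mitotic cells. CENPF was at 36.7 and 1142 CPM, 31.1-fold higher (19.6 to 52.5) in mitotic cells, and TPX2, at 121 and 543 CPM, was the narrowest mitotic member at 4.51-fold (3.34 to 6.14). CENPE was at 58.3 CPM in T cells counted for neither list, where UBE2C was at 0.891 CPM.

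Outside IPP, no member passed 2-fold between regions compared along the intestine in T or innate lymphoid-like cells at the main limits. The summed S phase level was lower in JEJ than in DUOD. Between JEJ and DUOD, 0 of 30 members were higher and 0 lower by 2-fold or more in JEJ, where 5.63% of 9329 genes were higher and 3.08% lower. The median log2 ratio was -0.33 beside 0.07 for all genes, and 26 of 30 members lay below a ratio of 1. Of the 12 S phase members, 11 did so. The S phase sum was 1.45-fold lower (1.34 to 1.56) in JEJ and the mitotic sum 1.19-fold lower (1.10 to 1.28). DUOD levels rested in part on 1 cell of 38567 UMIs, which held 12.7% of the S phase and 21.4% of the mitotic UMIs. Without it the levels were 824 and 678 CPM, beside 615 and 663 CPM in JEJ without its own highest cell. At a mitochondrial limit of 10%, the DUOD levels were 1782 and 1500 CPM and 24 members were lower in JEJ by 2-fold or more. Between NoPP and JEJ, 0 members were higher and 0 lower, where 3.89% of 10462 genes were higher and 4.09% lower, and the median log2 ratio was -0.10 beside 0.03. At the mitochondrial limit of 10%, 10 members were higher in NoPP, whose S phase level was then 1097 CPM. For neither comparison was the share of all genes measured at that limit. This comparison shares the JEJ library with the one before and the NoPP library with the one that follows.

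Between the ileal libraries the mitotic members of T cells were lower in IPP by more than the S phase members, and the number of members past 2-fold depended on the removal of suspected doublets. In T or innate lymphoid-like cells, 10 of 30 members were lower by 2-fold or more in IPP than in NoPP and 0 higher, where 3.1% of 10887 genes were lower and 3.94% higher. All 10 were mitotic members, and all 16 mitotic members had a ratio below 1. The median log2 ratio was -1.13 for mitotic and -0.35 for S phase members, beside -0.05 for all genes. The mitotic sum was 2.08-fold lower (1.97 to 2.20) in IPP and the S phase sum 1.28-fold lower (1.23 to 1.34). At 1.5-fold, 17 members were lower, but the share of all genes past 1.5-fold was not measured, so this count is given alone.

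TOP2A was at 177 CPM in DUOD, 154 in JEJ, 54.1 in IPP and, for NoPP, 118, 2.17-fold lower (1.91 to 2.48) in IPP than in NoPP. CENPF was at 115, 92.1, 36.4 and 85.2 CPM, 2.34-fold lower (2.00 to 2.75). TPX2 was at 64.1, 53.1, 22.5 and 58.6 CPM, 2.60-fold lower (2.13 to 3.19). IPP was the lowest of the 4 regions for each of these 3 genes. UBE2C, KIF11, DLGAP5 and CCNB1 were 2.55-, 2.67-, 2.59- and 2.75-fold lower, and KIF15, BUB1 and CENPA 2.31-, 2.05- and 2.21-fold lower. BIRC5, at 62.6, 40.6, 31.1 and 46.0 CPM, was 1.48-fold lower (1.23 to 1.78). CENPE was at 133, 105, 68.2 and 119.8 CPM, 1.76-fold lower (1.56 to 1.98). KIFC1, SHCBP1, CCNB2 and AURKB were 1.52- to 1.80-fold lower, under 2-fold.

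Of the S phase members, PCNA was at 158 CPM in DUOD, 98.2 in JEJ, 114 in IPP and, for NoPP, 124, a ratio of 0.922 (0.832 to 1.02) between IPP and NoPP. TYMS was at 111, 76.2, 79.1 and 83.7 CPM, a ratio of 0.945 (0.834 to 1.07). PCLAF was at 132, 77.5, 61.3 and 105 CPM, 1.72-fold lower (1.51 to 1.95) in IPP, and DUT at 189, 143, 101 and 141 CPM, 1.40-fold lower (1.26 to 1.55). TK1 was 1.57-fold lower and MCM4 1.45-fold lower, and the other MCM genes 1.11- to 1.37-fold lower. HMGB2 was at 693, 588, 459 and 637 CPM, and STMN1 at 319, 287, 251 and 249 CPM. IPP and NoPP therefore overlapped within counting error for PCNA, TYMS, MCM3, MCM5, RRM1 and STMN1.

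The 2-fold calls depended on the doublet step. It removed 30 T or innate lymphoid-like cells of IPP that held 2924 CPM of S phase and 3519 CPM of mitotic members, and 25 of NoPP that held 226 and 117 CPM. With suspected doublets kept, the mitotic level was 436 CPM in IPP and 646 in NoPP, the S phase level 646 and 704 CPM, and 0 members were lower by 2-fold or more. The mitotic sum was then 1.48-fold lower (1.41 to 1.55) in IPP and the S phase sum 1.09-fold lower (1.04 to 1.14), and all 16 mitotic members still had a ratio below 1. The 30 cells had a median of 6927.5 UMIs, B markers at 51.4 CPM (2189 CPM in B-like cells) and T markers at 29268 CPM. Without thinning, 1 of them held 2 or more UMIs of B markers. With the mean of the cells' own CPM in place of summed UMIs, 1 member was lower. Of IPP cells counted for a list after the doublet step, 0% held 2 B marker UMIs after thinning. The same 0% was found in the cells not counted, so this share cannot tell these groups apart. B markers summed to 17.1 CPM in the counted cells, beside 27.2 CPM in the cells not counted. CD22 and BANK1 were at 0 UMIs in the counted cells.

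**Figure D5:**
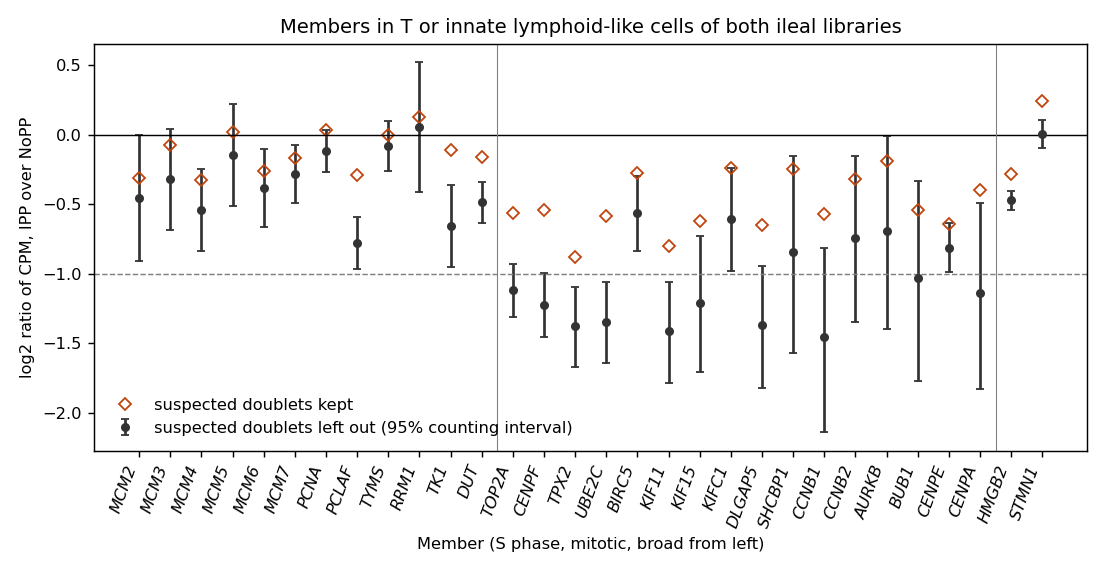
Log2 ratio of CPM of each member between T or innate lymphoid-like cells of IPP and NoPP, with suspected doublets left out (black points with exact 95% counting intervals) and kept (open orange diamonds); the solid line is a ratio of 1 and the dashed line a 2-fold lower level. With doublets left out 10 mitotic members lie below the dashed line, and with doublets kept no member does.

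T types were then read apart, and the difference between types was not tested. In CD8 T-like cells the mitotic members were at 683 CPM in DUOD, 755 in JEJ, 158 in IPP and, for NoPP, 646, 4.09-fold lower (3.50 to 4.82) in IPP than in NoPP. In gamma delta T-like cells they were at 429.8, 249.8, 149 and 484 CPM, 3.25-fold lower (2.79 to 3.80). In naive or recirculating T-like cells the ratio of IPP to NoPP was 1.13 (0.682 to 1.92), an interval that spans 1. T cluster 11, led by GNLY and SYK and given here by its number, held 506 CPM in IPP (548 cells) and 577 CPM in NoPP (569 cells), 1.14-fold lower (1.05 to 1.24), while its S phase members were 1.19-fold higher (1.10 to 1.28) in IPP. T cluster 6, led by the same genes, held 754 CPM in DUOD (78 cells) and 1040.4 in JEJ (203 cells). The CD8 T-like cells were mostly of T cluster 4 in DUOD and JEJ and of T cluster 0 in NoPP and IPP. These types were clustered without 614 further genes that follow the members. With those genes kept, CD8 T-like cells held 740.8 CPM of mitotic members in IPP and 1639 in NoPP, and gamma delta T-like cells 136 and 66.9 CPM, so the assignment of dividing cells to a type depended on that choice.

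Cells sorted by single markers, with no clustering, gave the following levels. Cells with CD8B and a CD3 gene held mitotic members at 1185 CPM in DUOD, 927 in JEJ, 200.2 in IPP and, for NoPP, 1333, on 77, 127, 244 and 351 cells. Of these, 7.79, 4.72, 1.64 and 6.27% were counted for the mitotic list after thinning, with intervals of 0.448 to 4.14 in IPP and 3.97 to 9.34 in NoPP. Cells with TRDC, the delta chain gene, held 462, 687, 171 and 435 CPM, and 2.01% (0.872 to 3.92) of IPP and 2.73% (1.42 to 4.72) of NoPP were counted. Cells with CD4 and a CD3 gene held 805 CPM in IPP (67 cells) and 378 in NoPP (15 cells). Cells without CD3E, CD3G, CD8B or CD4 UMIs held 60.4 to 214 CPM, the lowest of the gates in each region where the others were measured. All gates left suspected doublets out.

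T cluster 1, 181 cells led by CTLA4, PDCD1 and, among others, MUC2 and CD4, stayed unnamed. It held 1992 CPM of S phase and 1603 CPM of mitotic members over all regions. The levels were 1057 and 654 CPM in IPP (124 cells) and 2623 and 2175 CPM in NoPP (48 cells). The mitotic members were 3.33-fold lower (2.95 to 3.76) in IPP than in NoPP. These sums rest in part on single cells. In IPP 1 cell held 158 of the 359 mitotic UMIs of T cluster 1. In NoPP 1 cell of 51054 UMIs held 252 of its 1031, and in DUOD 1 cell held 241. After thinning, 13.3% of its cells were counted for the S phase list and 9.39% for the mitotic list, beside 12.96 and 9.26% of T cluster 8 (108 cells). In IPP its shares of 8.06 and 4.03% lay below the 9.31 and 5.11% of T cluster 11. T cluster 13 (102 cells led by KLF2, with CCR7) held less, 345 and 82.5 CPM. In that cluster 80.7% of the S phase and mitotic UMIs were S phase UMIs, beside 55.4% in T cluster 1.

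Crypt epithelial-like cells of JEJ stood above the enterocyte-like cells beside them. Of the 30 members, 25 had 10 UMIs or more in both classes together, most of them only through the crypt epithelial-like cells, so these had to differ and the count past 2-fold is not read. Of all 8745 genes tested, 26.2% were higher by 2-fold or more and 13.6% lower. PCNA was at 114 CPM in crypt and 11.5 CPM in enterocyte-like cells, 9.95-fold higher (6.42 to 15.5), and STMN1 at 165 and 11.7 CPM, 14.1-fold higher (9.44 to 21.2). The narrowest gaps were those of MCM6, at 60.5 and 19.5 CPM or 3.10-fold (1.90 to 4.94), and CENPE, at 69.8 and 10.02 CPM or 6.96-fold (4.13 to 11.7). The S phase sum was 17.7-fold higher (14.7 to 21.2) and the mitotic sum 52.6-fold higher (39.2 to 71.9). A single cell of 83123 UMIs held 31.3% of the S phase and 32.9% of the mitotic UMIs of the 29 cells, and without it the levels were 767 and 651 CPM. After thinning, 7 cells were counted for the S phase list (24.1%, 10.3 to 43.5) and 10 for the mitotic list (34.5%, 17.9 to 54.3).

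Between regions the crypt epithelial-like cells differed in the mitotic members. Of 28 members tested, 12 were higher by 2-fold or more in NoPP and 1 lower, where 15.2% of 5986 genes were higher and 9.62% lower. All 12 were mitotic members. CENPF was at 76.7 CPM in JEJ and 532 in NoPP, 6.94-fold higher (4.66 to 10.6), on 33 and 110 UMIs. TOP2A was at 123 and 503 CPM, 4.08-fold higher (2.91 to 5.80), and CCNB1 at 41.9 and 169 CPM, 4.05-fold higher (2.23 to 7.59). PCLAF was the lower member, at 149 and 53.2 CPM, and SHCBP1 was at 0 UMIs in NoPP. The median log2 ratio was 1.74 for mitotic and -0.26 for S phase members, beside 0.09 for all genes, and S phase UMIs were 53.5% (49.7 to 57.1) of both lists together in JEJ and 22.4% (19.4 to 25.7) in NoPP.

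That difference rested on few cells. In NoPP, 6 of 12 cells were counted for the mitotic list and 1 for the S phase list, and 1 cell held 47.5% of the mitotic UMIs. Without it the mitotic level was 1684 CPM. With the highest cell of each region left out, 10 members were higher. With the mean of the cells' own CPM, 2 members were higher and 7 lower, and the log2 ratios of CCNB1 and CENPA turned to -0.15 and -0.48. The share of all genes past 2-fold was not measured at these settings. T markers summed to 805 CPM in the 7 counted cells of NoPP and to 110.2 CPM in the 5 others, with UMIs of 9 of 11 markers and IL7R and KLRK1 at 0. In the counted cells of JEJ they summed to 42.2 CPM, with 4 of 11 markers. B markers were at 0 UMIs in both regions. Of the 7 counted cells of NoPP, 14.3% held 2 or more T marker UMIs after thinning. The NoPP cell with 47.5% of the mitotic UMIs held 1 T marker UMI before thinning. The part of T cell RNA in the crypt values was not tested.

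Other genes of the cycle, which were not members, were read from 2 lists. The list of other replication genes (41 matched) was led in UMIs by SLBP, which binds histone transcripts, USP1 and NASP, and that of other mitotic genes (68 matched) by TUBB4B, the condensin gene SMC4 and CKS2. B-like cells of IPP held them at 3138 and 4498 CPM, beside 823 and 962 CPM in T or innate lymphoid-like cells there. In that comparison 37 of 41 and 65 of 68 were higher by 2-fold or more and 0 lower, beside 17.1% of all genes higher. Between T or innate lymphoid-like cells of IPP and NoPP, 8 of 41 replication and 21 of 68 mitotic genes were lower and 0 higher, with medians of -0.40 and -0.73, beside 3.1% of all genes lower. With suspected doublets kept, 0 and 2 of them were lower, beside 2.53% of all genes. Between crypt epithelial-like cells of NoPP and JEJ, 24 of 47 mitotic genes tested were higher and 0 lower, while 2 of 23 replication genes were higher and 4 lower, beside 15.2% of all genes higher and 9.62% lower. None of these genes set the kind of a cell, and in B-like cells of IPP 38 of 40 replication genes were higher in S phase than in mitotic cells and 66 of 68 mitotic genes were higher in mitotic cells. SLBP was at 328 CPM in S phase and 102 CPM in mitotic cells, and TUBB4B at 238 and 1019 CPM. TUBB4B was also at 311 CPM in enterocyte-like cells of JEJ and at 160 to 183 CPM in those of the other regions. In T or innate lymphoid-like cells it was at 80.6 to 161 CPM, so its counts also reached cells out of cycle. Over the regions, enterocyte-like cells held the other mitotic genes at 345 to 465 CPM and the other replication genes at 111 to 126 CPM.

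Genes that drive or hold back entry into the cycle differed less between classes. The list called G1 drivers held cyclins and their kinases, E2F genes, MYC, CDC25A and RBL1, not all of which push a cell into S phase. Its genes summed to 724 CPM in B-like and 417 CPM in T or innate lymphoid-like cells of IPP. Of its 15 genes, 10 were higher by 2-fold or more in B-like cells and 2 lower. CCND3, cyclin D3, was at 93.8, 225, 384 and 212 CPM in B-like cells of IPP counted for neither list, S phase, both and mitotic. CCND2, cyclin D2, was highest in cells of neither kind, at 66.9, 27.0, 9.69 and 26.5 CPM. Of 11 brakes, 1 was higher and 3 lower in B-like cells, where 17.1% of all genes were higher and 18.5% lower. BTG1, an antiproliferative gene, was at 1391, 531, 295 and 507 CPM over the 4 kinds of B-like cells and at 1184, 890, 372 and 528 CPM over those of T cells of NoPP, highest in cells counted for neither list in both classes. Between IPP and NoPP T cells, 0 of 14 G1 drivers passed 2-fold in either direction, and 1 of 11 brakes was higher and 0 lower. Of all genes tested in that comparison, 3.94% were higher and 3.1% lower in IPP. The counts of both lists are near that share and are not read further.

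CDK1, the kinase that starts mitosis, was at 85.3 CPM in B-like cells of IPP and at 31.3, 26.0, 16.5 and 24.0 CPM in T or innate lymphoid-like cells, from DUOD through JEJ and IPP to NoPP. The checkpoint kinase BUB1B was at 65.1 CPM in those B-like cells and at 28.3, 17.04, 8.23 and 12.5 CPM in the T regions. NUSAP1, a spindle protein, was at 193 CPM and at 84.2, 87.6, 59.97 and 91.3 CPM. IPP was again lowest of the T regions for all 3. In enterocyte-like cells NUSAP1 was at 10.9 to 22.3 CPM, so like those of CENPE its counts also reached cells out of cycle. The part of RNA from other cells in these counts was not tested.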

How the data were processed

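The data were counts of unique molecules (UMIs) per gene and barcode from 10x droplet libraries. The authors deposited raw, unfiltered counts made with Cell Ranger 4, per the file headers (4.0.6 per the submitters' processing notes). No label or file header used here names the build of the counts. Coordinates and sequences are therefore left out, and promoters were not analysed here. Each region was 1 pooled matrix of 25880 genes and 6794880 listed barcodes. Of these genes, 17733 had a symbol in the files, 977 were named through the gene name table and 7170 had none.

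A barcode was kept from 1000 UMIs and 500 genes upward, when no more than 25% of its UMIs came from 13 mitochondrial genes. A barcode that held 10 times the UMIs in another library was left out (121, all of NoPP). Doublets were scored against 2 simulated doublets a cell and the highest scores were left out at 0.8% per 1000 cells (133 cells in all). Cells were clustered with scanpy 1.11.5 on 2000 variable genes, 30 components and 20 neighbours at resolution 1 (15 neighbours within epithelial cells), without 174 cell cycle genes. T types were clustered without 614 further genes correlated with the members at over 0.1. A cluster was named from at least 3 detected markers.

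Levels are CPM, a list's UMIs scaled to the UMIs of a class, with exact Poisson intervals; shares have exact Clopper-Pearson intervals, both at 95%. Cells were thinned to 1000 UMIs for shares. A ratio was computed for genes with at least 10 UMIs in both groups together, and called past 2-fold; no test was possible with 1 pooled sample a region. The calculations were tested on simulated data. Values are given for every member with at least 50 UMIs, by role, and for the 3 genes with the most UMIs of each other list; further names (clusters' leading genes, MCM6 in enterocyte-like cells, CCND2) were chosen after their values were seen. The members and lists were chosen with earlier results of these data known. The alternatives tried were other limits on barcodes, doublets, classes, thinning, members, scaling and fold.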

Additional observations from a re-analysis of the deposited data

How the results depend on the processing

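The labels name 4 titles in each region, but cells cannot be traced to them, so leaving out a replicate could not be done. No paired analysis was possible because the columns carry no replicate number and nothing was tested between replicates. Crypt values rest on 29 and 12 cells, and a share of cells depends directly on the thinning depth and the UMI minimum. Of the alternatives, those with CDK1, BUB1B and NUSAP1, without CENPE, without the cell with the most member UMIs, with the following genes kept in T clustering, and with doublets kept for the other gene lists were chosen after seeing the data. Of 1973 single gene ratios, 1840 kept their call (past the fold limit or not), 131 changed it and 2 that had been called changed sign. The levels and shares of lists that left their interval, and the counts that moved by over 1.5 times, are given here, and the cause was not tested. B, T and crypt stand for the B-like, T or innate lymphoid-like and crypt epithelial-like cells, and members are counted past 2-fold unless stated. The share of all genes was not measured beside these counts of members, except with suspected doublets kept. With limits of 500 UMIs and 250 genes, the S phase CPM of crypt JEJ was 606, and the mitotic CPM of crypt JEJ was 464. Also with limits of 500 UMIs and 250 genes, the number of members lower for crypt NoPP over JEJ was 0. At a mitochondrial limit of 10%, the S phase CPM of B IPP, T DUOD, T JEJ, T IPP, T NoPP, crypt JEJ and B NoPP were 4975, 1782, 601, 771, 1097, 1325 and 4507, and the mitotic CPM of B IPP, T DUOD, T JEJ, T IPP, T NoPP, crypt JEJ and B NoPP were 3338, 1499.9, 581, 501, 953, 1038 and 3531. Also at a mitochondrial limit of 10%, the percent of S phase cells of B IPP, T DUOD, T IPP and T NoPP were 64.8, 14.8, 8.25 and 9.77, and the percent of mitotic cells of B IPP, T DUOD and T NoPP were 44.0, 10.2 and 5.27. Still at a mitochondrial limit of 10%, the S phase percent of both lists' UMIs of T DUOD, T JEJ, T IPP and T NoPP were 54.3, 50.9, 60.6 and 53.5, and the number of members higher for T NoPP over JEJ was 10. Last, at a mitochondrial limit of 10%, the number of members lower for T JEJ over DUOD and B IPP over NoPP were 24 and 1. At a mitochondrial limit of 40%, the S phase CPM of B IPP, T IPP, T NoPP and crypt NoPP were 3691, 521, 687 and 600.2, and the mitotic CPM of B IPP, T JEJ, crypt JEJ and crypt NoPP were 2511, 742, 692 and 2091. Also at a mitochondrial limit of 40%, the percent of S phase cells of T DUOD was 7.75, and the S phase percent of both lists' UMIs of T IPP, crypt JEJ and B NoPP were 61.7, 57.5 and 55.9. Still at a mitochondrial limit of 40%, the number of members lower for crypt NoPP over JEJ was 3. With suspected doublets kept, the S phase CPM of B IPP and T IPP were 3802 and 646, and the mitotic CPM of T IPP was 436. Also with suspected doublets kept, the percent of mitotic cells of T IPP was 4.06, and the S phase percent of both lists' UMIs of T IPP was 59.7. Still with suspected doublets kept, the number of members lower for T IPP over NoPP was 0. With classes from marker UMIs, the S phase CPM of B IPP, T IPP, crypt JEJ and B NoPP were 2517, 587, 1031 and 2203, and the mitotic CPM of B IPP and B NoPP were 1528 and 1723. Also with classes from marker UMIs, the percent of S phase cells of B IPP was 33.7, and the percent of mitotic cells of B IPP was 18.9. Still with classes from marker UMIs, the S phase percent of both lists' UMIs of B IPP was 62.2. Thinned to 500 UMIs, the percent of S phase cells of B IPP, T DUOD, T JEJ, T IPP and T NoPP were 34.0, 4.27, 4.15, 3.18 and 3.66, and the percent of mitotic cells of B IPP, T IPP and crypt JEJ were 21.1, 1.65 and 10.3. Thinned to 2000 UMIs, the percent of S phase cells of B IPP, T DUOD, T JEJ, T IPP, T NoPP and crypt JEJ were 63.0, 21.3, 14.6, 16.2, 13.8 and 57.1, and the percent of mitotic cells of B IPP, T DUOD, T JEJ, T IPP and T NoPP were 40.0, 9.91, 7.85, 5.87 and 6.76. Counted at 1 UMI, the percent of S phase cells of B IPP, T DUOD, T JEJ, T IPP, T NoPP and crypt JEJ were 66.9, 27.9, 22.5, 26.0, 24.8 and 69.0, and the percent of mitotic cells of B IPP, T DUOD, T JEJ, T IPP and T NoPP were 42.6, 13.3, 11.6, 12.6 and 11.1. Counted at 3 UMIs, the percent of S phase cells of B IPP, T DUOD, T IPP and T NoPP were 38.2, 5.03, 2.99 and 3.89, and the percent of mitotic cells of B IPP and T IPP were 22.8 and 1.84. Without TOP2A, KIF15 and SHCBP1, also made in S phase, the S phase percent of both lists' UMIs of B IPP, T DUOD, T JEJ, T IPP, T NoPP, crypt JEJ, B NoPP and crypt NoPP were 66.7, 59.4, 54.8, 69.2, 58.4, 59.1, 65.3 and 27.0. Without DUT and PCNA, the S phase percent of both lists' UMIs of B IPP, T DUOD, T JEJ, T IPP, T NoPP, crypt JEJ, B NoPP and crypt NoPP were 42.0, 40.5, 35.7, 52.0, 40.6, 41.9, 41.7 and 17.04. With CDK1, BUB1B and NUSAP1, the percent of mitotic cells of T IPP was 4.07, and the S phase percent of both lists' UMIs of B IPP, T DUOD, T JEJ, T IPP, T NoPP, crypt JEJ and B NoPP were 56.8, 48.3, 43.1, 58.2, 47.7, 47.7 and 53.7. Without CENPE, the percent of mitotic cells of T IPP was 2.22, and the S phase percent of both lists' UMIs of B IPP, T DUOD, T JEJ, T IPP, T NoPP and B NoPP were 62.2, 56.5, 51.4, 69.3, 57.2 and 60.6. Without the cell with the most member UMIs, the S phase CPM of T DUOD, T NoPP and crypt JEJ were 824, 688 and 767, and the mitotic CPM of T DUOD, T JEJ, T IPP, T NoPP, crypt JEJ, B NoPP and crypt NoPP were 678, 663, 288, 619, 651, 1879 and 1684. Also without the cell with the most member UMIs, the S phase percent of both lists' UMIs of T DUOD, T IPP, B NoPP and crypt NoPP were 54.9, 65.7, 63.0 and 32.3, and the number of members higher for B IPP over NoPP was 3. Still without the cell with the most member UMIs, the number of members lower for crypt NoPP over JEJ was 0. With the mean of the cells' CPM, the number of members higher for T JEJ over DUOD, B IPP over NoPP and crypt NoPP over JEJ were 1, 2 and 2, and the number of members lower for T NoPP over JEJ, T IPP over NoPP and crypt NoPP over JEJ were 2, 1 and 7. Also with the mean of the cells' CPM, the log2 ratio of CCNB1 for crypt NoPP over JEJ and CENPA for crypt NoPP over JEJ were -0.15 and -0.48. Without each gene's highest cell, the number of members higher for B IPP over NoPP was 6. At a fold of 1.5, the number of members higher for B IPP over NoPP was 2, and the number of members lower for T JEJ over DUOD, T NoPP over JEJ, T IPP over NoPP, B IPP over NoPP and crypt NoPP over JEJ were 5, 1, 17, 1 and 3. Keeping shared barcodes, keeping the lists in clustering, the other scaling and testing genes with no minimum moved no list value in this way.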

Other observations

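Outside the B, T and crypt classes, antibody-secreting-like cells of IPP (79 cells) held S phase members at 714 CPM and mitotic members at 585 CPM. After thinning, 13.9% of them were counted for the S phase list and 7.59% for the mitotic list. Myeloid-like cells held 165 and 130.3 CPM in IPP and 97.9 and 34.9 CPM in NoPP. Goblet-like and enteroendocrine-like cells, secretory cells of the epithelium, were nearer to enterocyte-like cells: enteroendocrine-like cells held S phase members at 83.7 to 101 CPM and mitotic members at 24.9 to 70.3 CPM over the regions.

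MCM6 stood out among the S phase members of enterocyte-like cells of JEJ, and was chosen after its values were seen. It was at 19.5 CPM there, with 68 UMIs in 49 of 197 cells (24.9%), and gave 38.2% of their S phase UMIs. In DUOD it was at 1.16 CPM, in IPP at 1.21 CPM and in NoPP at 2.17 CPM. The JEJ cells with a UMI had a median depth of 36958 UMIs and those without 3618.5 UMIs; DUOD cells without one were as deep, at 33095 UMIs. Some other epithelial cells also held MCM6. It was at 17.5 CPM (4 UMIs) in BEST4 enterocyte-like cells of JEJ and 62.5 CPM (3 UMIs) in those of NoPP. In enteroendocrine-like cells of NoPP it was at 19.7 CPM (9 UMIs). In the other BEST4 enterocyte-like, goblet-like and enteroendocrine-like groups measured it was at 0 to 7.93 CPM. In the RefSeq table of assembly Sscrofa11.1, MCM6 lies between DARS and LCT, the lactase gene. LCT matched no symbol and was not analysed here.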
